A study of Mus musculus with 2 samples.

Results

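Mono 2 is the name the authors gave to a small monocyte-like population of the mouse aorta, and its cells differed widely in how much MHC class II mRNA they held. A score was computed for each Mono 2 cell as the UMIs (barcodes that mark single captured transcripts) of H2-Aa, H2-Ab1, H2-Eb1 and Cd74 per 10000 UMIs of the cell. The cells were thus chosen by their measured levels of these genes. Within each library, cells above the 60th percentile of the score form the MHC II-high group and cells at or below the 40th percentile the MHC II-low group. Of 5451 cells in all, 109 were Mono 2, of which 44 were MHC II-high (16 in library 1 and 28 in library 2), 44 MHC II-low (16 and 28) and 21 lay between (8 and 13). The mice were females of strain C57/BL6, labelled WT, fed chow and 12 weeks old, and each of 2 whole aortas gave 1 droplet library, with no allele or agent beyond this. Both groups therefore share their strain, age, sex and diet, and each library holds cells of both. The atlas was made to describe the cells of a normal vessel, and the comparison here asks which other genes go with high MHC class II mRNA within 1 population.

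MHC class II molecules present peptides from endosomes to CD4+ T cells. H2-Aa and H2-Ab1 encode the chains of I-A, H2-Eb1 encodes the beta chain of I-E, which this strain does not display for want of an alpha chain, and Cd74 encodes the invariant chain that guards the groove until H2-DM exchanges its remnant for a peptide. The genes are switched on by the coactivator CIITA, which sits on an enhanceosome at the conserved W, X and Y boxes of their promoters. Dendritic cells and B cells hold the most, while monocytes and macrophages hold less and raise it on activation.

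The letters that these genes share just before their start are shown because the score sums members of one co-regulated family. Promoters were taken from RefSeq (GRCm38.p6), as the 250 bases before the annotated start of each gene, read 5′ to 3′ on the gene's own strand. Of 8 class II genes looked up, 7 matched, and H2-Ab1 was not among them. Cd74, the most abundant score gene, was not looked up. Capitals mark TGATTGG, the core of the Y box. Both strands were searched, and all matches lay on the gene's strand. H2-Aa and H2-Eb1 are score genes, H2-Oa is the class II gene called higher below, and H2-DMb1 is a class II gene that missed the threshold of that test and passed it in some other settings given below.
H2-Aa (chr17:34287824-34288073, minus strand): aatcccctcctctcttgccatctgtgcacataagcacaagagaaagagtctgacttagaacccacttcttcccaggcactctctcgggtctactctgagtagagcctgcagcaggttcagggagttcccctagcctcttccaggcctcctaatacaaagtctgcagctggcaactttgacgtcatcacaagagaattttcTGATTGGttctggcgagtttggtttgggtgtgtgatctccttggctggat
H2-Eb1 (chr17:34305617-34305866, plus strand): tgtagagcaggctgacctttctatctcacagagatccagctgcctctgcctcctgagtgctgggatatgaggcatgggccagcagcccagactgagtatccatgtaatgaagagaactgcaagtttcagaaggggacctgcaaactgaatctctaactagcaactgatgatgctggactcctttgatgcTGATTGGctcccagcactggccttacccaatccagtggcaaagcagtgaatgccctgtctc
H2-Oa (chr17:34092129-34092378, plus strand): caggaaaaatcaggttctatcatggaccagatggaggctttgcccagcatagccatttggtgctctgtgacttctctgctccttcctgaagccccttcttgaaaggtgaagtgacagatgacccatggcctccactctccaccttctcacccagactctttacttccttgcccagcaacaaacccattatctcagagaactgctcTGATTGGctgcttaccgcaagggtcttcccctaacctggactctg
H2-DMb1 (chr17:34152941-34153190, plus strand): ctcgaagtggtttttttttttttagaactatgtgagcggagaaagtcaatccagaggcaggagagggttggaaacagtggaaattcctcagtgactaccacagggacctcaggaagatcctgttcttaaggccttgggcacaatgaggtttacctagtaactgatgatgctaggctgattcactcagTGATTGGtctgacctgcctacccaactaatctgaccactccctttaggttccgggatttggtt
TGATTGG was found for 6 of the 7 genes, against 7.23% of 32851 promoters of this length, and H2-DMa was the gene without it. Its first base lay 50 bases before the start in H2-Aa, 61 in H2-Eb1, 45 in H2-Oa and 63 in H2-DMb1. H2-Oa, which was called, and H2-Ob, H2-DMb1 and H2-DMb2, which were not, all hold the motif. A match of letters is a description of the sequence and does not show binding.

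The score itself ran from 753 to 1154 with a median of 895 in MHC II-high cells of library 1, and from 683 to 1494 with a median of 1014 in those of library 2. In MHC II-low cells it ran from 0 to 598 with a median of 479 in library 1, and from 0 to 448 with a median of 311 in library 2. At the borders, the last MHC II-high cell of library 1 had a score of 753.1 beside a middle cell of 740.7, and the first MHC II-low cell one of 598.2 beside a middle cell of 650.2. In library 2 these values were 683.2 and 676.0 at the upper border, and 448.5 and 489.7 at the lower. The scores are continuous at both upper borders, so the groups are ranges of one measure.

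**Figure D1:**
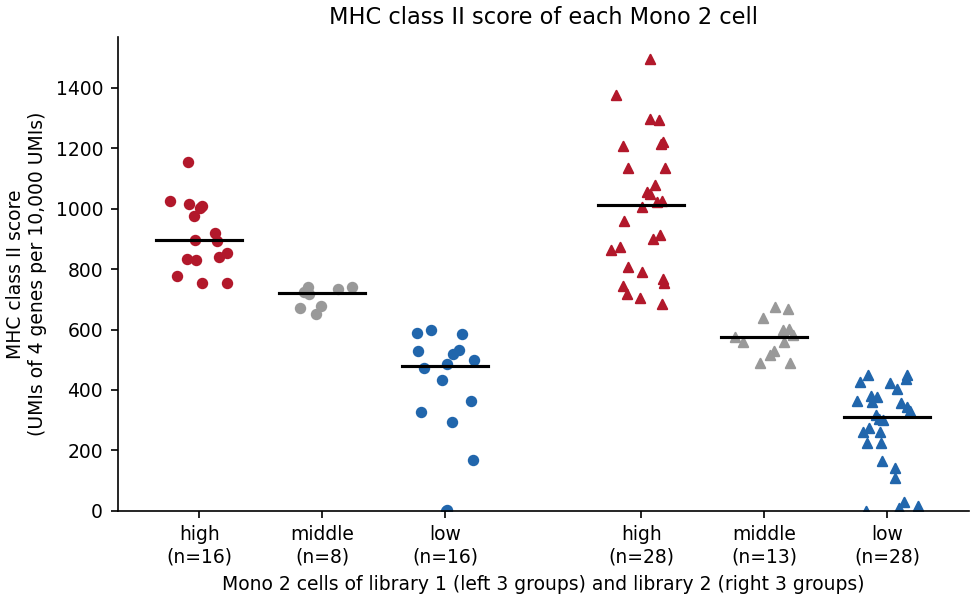
MHC class II score of every Mono 2 cell (y axis, UMIs of H2-Aa, H2-Ab1, H2-Eb1 and Cd74 per 10000 UMIs), with MHC II-high, middle and MHC II-low cells of library 1 on the left and of library 2 on the right. Points are cells and bars medians (895, 721 and 479 in library 1; 1014, 574 and 311 in library 2), and the groups do not overlap within a library because the score defined them.

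Cd74, the most abundant score gene, made up 49303 and 52235 CPM (counts of UMIs scaled to the total of the summed cells) in MHC II-high cells of libraries 1 and 2, against 21165 and 14748 CPM in MHC II-low cells. H2-Ab1 had 16333 and 17720 CPM in MHC II-high cells, against 8771 and 6645 in MHC II-low cells. H2-Aa had 13892 and 15912 CPM in MHC II-high cells, against 6097 and 4970 in MHC II-low cells. H2-Eb1 had 11240 and 13810 CPM in MHC II-high cells, against 5239 and 4576 in MHC II-low cells. These genes chose the cells, so their difference is given without a test. Even MHC II-low cells held more Cd74 than the authors' other monocyte population, Mono 1 (11764 and 8931 CPM), their Macro population (6513 and 4404 CPM) and smooth muscle cells (VSMC, 97.3 and 58.2 CPM). All levels and folds below are computed after leaving the 4 score genes out of the sums.

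The groups also differed in depth. The median was 8348.5 and 7934 UMIs per cell in MHC II-high cells, against 4353 and 5719 UMIs in MHC II-low cells, with 2277.5 and 2184.5 against 1707.5 and 1821 genes detected. Mitochondrial genes took 2.01% and 2.37% of UMIs in MHC II-high cells, against 3.49% and 3.04% in MHC II-low cells. No Mono 2 cell was a predicted doublet (of 58 and 26 predicted in the libraries), and none of the 12 barcodes found in both libraries belonged to a Mono 2 cell. The libraries held 2260 and 3191 cells with 11104066 and 19484171 UMIs in all. The part of depth and mitochondrial share in the differences below was not tested beyond thinning each cell to 1300 UMIs.

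MHC II-high cells were set apart by genes of conventional dendritic cells, MHC II-low cells by Retnla, Lyz1, Fn1, Lpl and genes of monocytes. UMIs were summed per library and group, and edgeR's quasi-likelihood test with library as a block was fitted across all populations. The fit covered 9792 genes and called 223 of them at an adjusted p under 0.05 (2.28%), with 139 higher in MHC II-high cells (1.42%) and 84 lower (0.858%). Of these, 212 had the same direction in each library. In 11 of the called genes, all of them lower, 1 cell gave more than 50% of the UMIs of the higher group. The median log2 fold change of all genes tested was 0.00203. With cells thinned to 1300 UMIs, the calls came to 55 of 6161 genes (0.893%), with 22 higher (0.357%) and 33 lower (0.536%), 43 of them among the 223 and each in the same direction. Of 63 called genes followed individually and also tested there, 38 lost their call. Fold changes below are log2 ratios of MHC II-high to MHC II-low cells with their SE, adjusted p-values are from that test over all genes, and n is 2 libraries.

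The lectin receptor Cd209a (a mouse relative of DC-SIGN, a marker of type 2 conventional and monocyte-derived dendritic cells) had the smallest p of the genes higher in MHC II-high cells. It had 1227 and 980 CPM in MHC II-high cells, against 0 and 17.2 CPM in MHC II-low cells, and 0 and 200 CPM in the middle cells. Its log2 fold change was 6.67 ± 0.40 (adjusted p = 7.05e-13), but with 3 UMIs in all MHC II-low cells the ratio is best read with its counting interval, 96.6-fold (95% interval 32.8 to 471). Mono 1 held 45.3 and 60.2 CPM of Cd209a, below the level of MHC II-high cells.

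Over all 9792 genes tested, 1.42% were called higher and 0.858% lower, shares to read beside each list count here and below. Of 10 tested genes of type 2 dendritic cells, 6 were higher in MHC II-high cells and 0 lower, with a median log2 fold change of 3.05. Besides Cd209a these were Clec10a and Mgl2, galactose-type lectins, the chemokine Ccl17, the lectin Cd209d and Klrd1, which encodes CD94. Mgl2 had 1089 and 955 CPM in MHC II-high cells, against 198 and 200 CPM in MHC II-low cells, a log2 fold change of 2.41 ± 0.27 (adjusted p = 3.33e-07). Clec10a had 326 and 675 CPM in MHC II-high cells, against 62.5 and 34.3 CPM in MHC II-low cells (3.68 ± 0.38, adjusted p = 7.82e-08). The groups did not overlap for either gene, as was so for 33.8% of the 9792 genes tested. Mono 1 held 1210 and 964 CPM of Mgl2, 348 and 476 CPM of Clec10a and 151 and 190 CPM of Cd209d, which had 112 and 78.8 CPM in MHC II-high cells, so these genes are not limited to MHC II-high cells. Klrd1 and Ccl17 rested on 1 UMI each in MHC II-low cells, with ratios of 40.7 (95% counting interval 6.96 to 1639) and 27.1 (4.53 to 1104).

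Of 11 tested genes of type 1 dendritic cells, the subset that cross-presents antigen, 4 were higher and 0 lower, with a median of 3.05 as fitted and 2.38 with a gene absent from 1 group at its bound. The transcription factor Irf8, needed for this subset, had 712 and 281 CPM in MHC II-high cells, against 20.8 and 74.4 CPM in MHC II-low cells (3.05 ± 0.38, adjusted p = 1.92e-06). Cadm1, an adhesion molecule of the subset, had 172 and 163 CPM in MHC II-high cells, against 10.4 and 11.4 CPM in MHC II-low cells (3.97 ± 0.70, adjusted p = 5.34e-04). Ppt1, a lysosomal thioesterase, and Ifi205 were the other two called, at 2.35 ± 0.37 and 2.38 ± 0.64. Ifi205 stood at -0.67 when cells were ranked by Cd74 alone. The defining receptors Clec9a, which senses dead cells, and Xcr1, a chemokine receptor, did not pass the test. Clec9a had 42.9 and 64.0 CPM in MHC II-high cells, against 0 and 5.72 CPM in MHC II-low cells (adjusted p = 0.164), and Xcr1 had 85.8 and 39.4 CPM against 0 and 5.72 CPM (adjusted p = 0.175). Xcr1 passed with cells split at the library median (adjusted p = 0.048), ranked without Cd74 (0.0447) or without the cells rich in another list described below (0.0485). The middle cells held 48.8 and 0 CPM of Clec9a and 244 and 11.7 CPM of Xcr1. The type 1 list summed to 2917 and 1630 CPM in MHC II-high, 3271 and 1033 in middle, and 593 and 950 in MHC II-low cells. These genes are therefore not limited to MHC II-high cells.

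Core dendritic cell genes had 4 of 10 higher and 0 lower, with a median of 1.41. Flt3, the receptor for the growth factor of dendritic cells, had 146 and 133 CPM in MHC II-high cells, against 0 and 28.6 CPM in MHC II-low cells (3.11 ± 0.85, adjusted p = 0.0471). Dpp4, which encodes the peptidase CD26, was higher by 2.87 ± 0.64, Napsa, an aspartic protease, by 1.42 ± 0.24, and Ckb, a creatine kinase, by 1.40 ± 0.28. Zbtb46, the transcription factor most specific to conventional dendritic cells, was near the limit of detection, with 2 and 5 UMIs in MHC II-high cells and 0 in MHC II-low cells (adjusted p = 0.18). Migratory dendritic cell genes had 0 of 7 higher and 1 lower, Ccl5, described below. Plasmacytoid genes had 0 of 4 called in either direction, and Siglech and Ccr9 were at 0 UMIs in both groups.

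**Figure D2:**
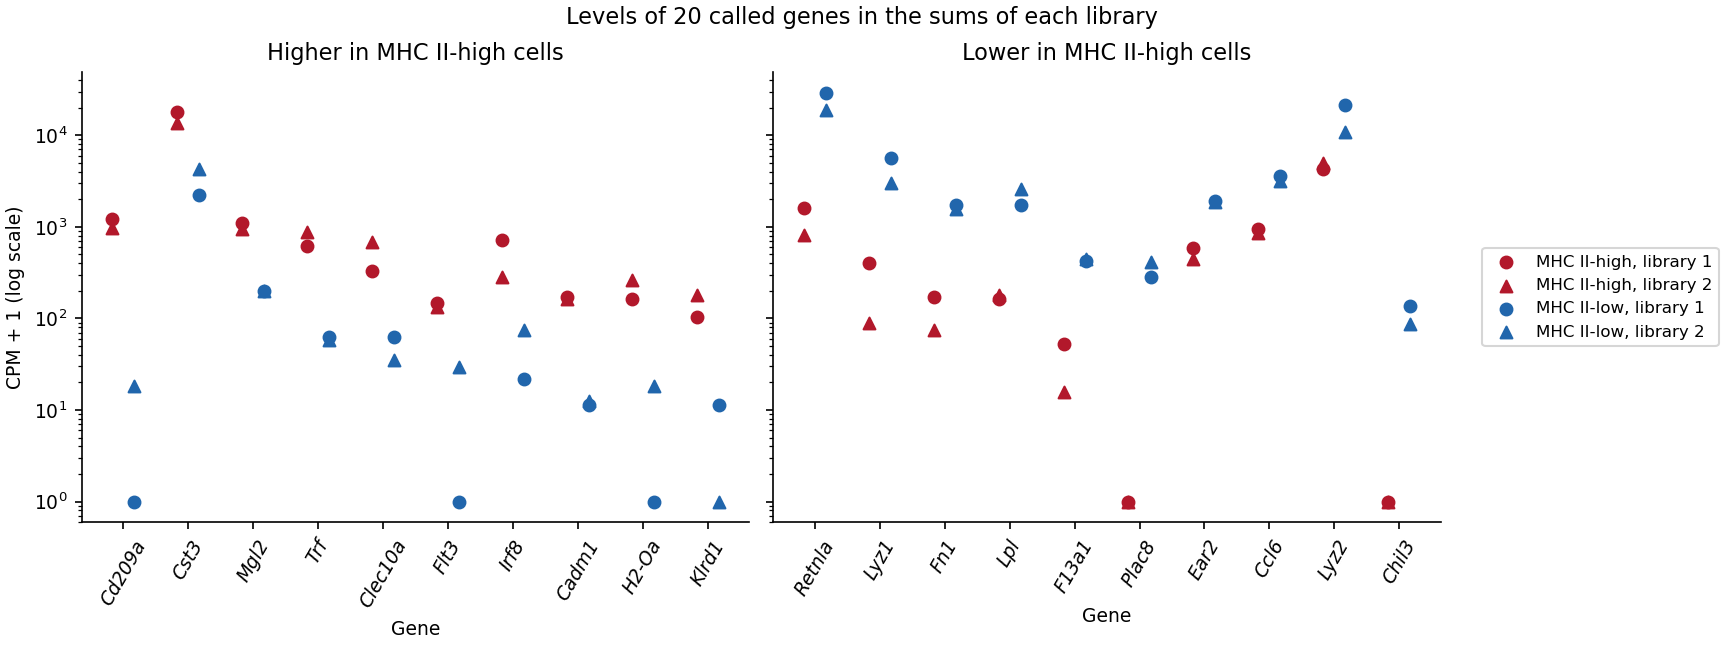
CPM + 1 (y axis, log scale, without the score genes) of 10 called genes that were higher (left) and 10 that were lower (right) in MHC II-high cells, with each point the sum of 1 group in 1 library (red MHC II-high, blue MHC II-low; circles library 1, triangles library 2). The genes were chosen among called ones, red and blue points overlap for none of the 20 (33.8% of all genes tested do not overlap), and Plac8 and Chil3 have 0 UMIs in MHC II-high cells.

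Cst3, the protease inhibitor cystatin C and itself abundant in dendritic cells, had the highest level of the 139 genes called higher. It had 17740 and 13507 CPM in MHC II-high cells, against 2227 and 4327 CPM in MHC II-low cells, a log2 fold change of 2.36 ± 0.18 (adjusted p = 2.96e-11). Its libraries are far apart within the MHC II-low group, yet both stay below both MHC II-high sums. The groups do not overlap for 33.8% of the 9792 genes tested. Mono 1 lay between the groups in Cst3, at 8136 and 8247 CPM. Trf, the iron carrier transferrin, had 618 and 886 CPM in MHC II-high cells, against 62.5 and 57.2 CPM in MHC II-low cells (3.78 ± 0.42, adjusted p = 1.90e-07). Mono 1 held more Trf than either group, at 1665 and 1330 CPM.

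The genes with the largest folds included surface receptors and ligands. Slamf7, a receptor of the SLAM family, had 214 and 236 CPM in MHC II-high cells, against 0 and 22.9 CPM in MHC II-low cells (4.03 ± 0.69). Tnfsf9, the ligand of the costimulatory receptor 4-1BB, had 137 and 123 CPM in MHC II-high cells, against 0 and 5.72 CPM in MHC II-low cells. Klrb1b, an inhibitory lectin receptor, had 10 and 19 UMIs in MHC II-high cells and 0 in MHC II-low cells, at least 8.19-fold higher against a floor of 3 UMIs over the group. Cd72, a receptor known best from B cells, had a ratio resting on 1 UMI in MHC II-low cells (31.3, 95% counting interval 5.29 to 1271), while no B cell gene of 7 tested was called and Cd79a and Ms4a1 were at 0 UMIs in both groups. Acp5, Lpcat1 and Ier3 completed the 15 largest folds, at 17.8 (2.86 to 736), 12.3 (3.11 to 106) and 14.8 (3.81 to 127) as ratios with counting intervals. The remaining one, Ms4a4c, belongs to the list of classical monocyte genes and was higher in MHC II-high cells (13.6-fold, 3.46 to 117). Mono 1 held 305 and 360 CPM of Ier3, above the 60.0 and 138 CPM of MHC II-high cells. Neither Cd72 nor Acp5 was called without the cells rich in another list described below.

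Of the MHC class II pathway outside the score, 2 of 11 tested genes were higher and 0 lower, with a median of 0.99. H2-Oa, a chain of H2-O, which restrains H2-DM, had 163 and 261 CPM in MHC II-high cells, against 0 and 17.2 CPM in MHC II-low cells, a ratio of 20.3 (95% counting interval 6.68 to 101; log2 fold change 4.39 ± 0.73, adjusted p = 4.01e-04). Ifi30, the thiol reductase that unfolds antigen in endosomes, had 395 and 478 CPM in MHC II-high cells, against 146 and 183 CPM in MHC II-low cells (1.48 ± 0.29, adjusted p = 0.00181). For both genes each MHC II-high sum lay above each MHC II-low sum. The groups did not overlap, in either direction, for 33.8% of the 9792 genes tested. Neither H2-Oa nor Ifi30 was called without the cells with dendritic cell markers, described below.

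The chains of the peptide exchanger H2-DM did not pass this test. H2-DMb1 had 1364 and 1142 CPM in MHC II-high cells, against 1010 and 744 CPM in MHC II-low cells (0.61 ± 0.18, adjusted p = 0.0626). It passed with no filter on low counts (adjusted p = 0.0136), with cells above the 75th percentile set against those at or below the 25th (0.0315), with predicted doublets of the other populations left out (0.0339) and without cells with dendritic cell markers, described below. H2-DMa had 2256 and 1891 CPM in MHC II-high cells, against 1769 and 1379 CPM in MHC II-low cells (0.48 ± 0.23, adjusted p = 0.433), and H2-DMb2 had 343 and 409 CPM against 312 and 309 CPM (0.38 ± 0.28, adjusted p = 0.714). For each of these genes the MHC II-high sum was the larger in each library, without passing the test. H2-DMb1 and H2-DMb2 are near-identical neighbours, so the counting may split their reads. H2-Ob, the partner of H2-Oa, had 112 and 118 CPM in MHC II-high cells, against 0 and 51.5 CPM in MHC II-low cells (adjusted p = 0.161). H2-Ob passed in the same comparison of the 75th and 25th percentiles and in the alternatives described below that leave out cells rich in another list or with Clec9a or Xcr1.

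Ciita, the coactivator itself, was sparse, with 18 UMIs in all MHC II-high and 8 in all MHC II-low cells, and 42.9 and 64.0 CPM in MHC II-high cells against 31.2 and 28.6 CPM in MHC II-low cells (0.99 ± 0.85, adjusted p = 0.797). A difference in Ciita was not detectable at this depth. Ctss, the cathepsin that trims the invariant chain, had 1055 and 1546 CPM in MHC II-high cells, against 1155 and 830 CPM in MHC II-low cells, with opposite directions in the libraries (adjusted p = 0.425). Lgmn, March1 and Rfxap did not pass the test either. Of 15 genes of MHC class I presentation, 1 was higher, B2m, the light chain of class I, with 2728 and 2856 CPM in MHC II-high cells against 1749 and 2124 CPM in MHC II-low cells (0.60 ± 0.16, adjusted p = 0.0377). Of 6 costimulatory genes, Slamf7 alone was called, and Cd83 and Cd48 had adjusted p-values of 0.415 and 0.13.

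The genes lower in MHC II-high cells were led in level by Retnla, which encodes the secreted protein RELM-alpha made by alternatively activated macrophages. Retnla had 1587 and 813 CPM in MHC II-high cells, against 29134 and 19009 CPM in MHC II-low cells, a log2 fold change of -4.29 ± 0.31 (adjusted p = 7.75e-12). The middle cells, at 26365 and 18528 CPM, resembled the MHC II-low cells. Lyz1, a lysozyme best known from Paneth cells of the gut, had 403 and 88.6 CPM in MHC II-high cells, against 5589 and 2999 CPM in MHC II-low cells (-4.23 ± 0.27, adjusted p = 1.51e-12). Lyz1 and Lyz2 are close paralogs whose reads the counting may split, and Lyz2 was lower too, with 4332 and 5013 CPM in MHC II-high cells against 21150 and 10921 CPM in MHC II-low cells (-1.53 ± 0.40, adjusted p = 0.0333).

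Fn1, fibronectin, had 172 and 73.9 CPM in MHC II-high cells, against 1749 and 1568 CPM in MHC II-low cells (-3.80 ± 0.27, adjusted p = 7.75e-12). Fibronectin is also made by smooth muscle, which held 749 and 948 CPM here, so the MHC II-high level lies below that of the surrounding cells. Lpl, lipoprotein lipase, had 163 and 177 CPM in MHC II-high cells, against 1717 and 2610 CPM in MHC II-low cells (-3.61 ± 0.27, adjusted p = 1.29e-11), while Mono 1 held 78.9 and 98.5 CPM and VSMC 14.8 and 29.1 CPM. Ctsd, the lysosomal protease cathepsin D, had 85.8 and 113 CPM in MHC II-high cells, against 708 and 372 CPM in MHC II-low cells (-2.23 ± 0.30, adjusted p = 6.59e-06). The chemokine Ccl6 had 944 and 857 CPM in MHC II-high cells, against 3622 and 3188 CPM in MHC II-low cells (-1.84 ± 0.18). None of these genes overlapped between the groups, as was so for 33.8% of the 9792 genes tested. In the list of 12 tested lysosomal protease genes, which holds Ctsd and the inhibitor Cst3, 1 was higher and 1 lower.

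Of 12 classical monocyte genes, 4 were lower (Plac8, Chil3, F13a1 and Fn1) and 1 higher (Ms4a4c), with a median of -2.56 and a summed level of 746 and 724 CPM in MHC II-high cells against 3383 and 3200 CPM in MHC II-low cells. Plac8 had 0 UMIs in MHC II-high cells, against 281 and 412 CPM in MHC II-low cells, at least 39.0-fold lower (adjusted p = 1.42e-08). F13a1, the A subunit of coagulation factor XIII, had 51.5 and 14.8 CPM in MHC II-high cells, against 427 and 441 CPM in MHC II-low cells (-3.85 ± 0.43). Mono 1 held more F13a1 than either group, at 2096 and 1991 CPM, so the gene does not set MHC II-low cells apart from Mono 1. Chil3, the chitinase-like protein Ym1, had 0 UMIs in MHC II-high cells, against 135 and 85.9 CPM in MHC II-low cells, and 1 cell gave 53.6% of its UMIs. Ly6c2, which defines classical monocytes, was almost absent from both groups, with 1 UMI in MHC II-high and 3 UMIs in MHC II-low cells. The chemokine receptor Ccr2 had 446 and 438 CPM in MHC II-high cells, against 458 and 601 CPM in MHC II-low cells (-0.23 ± 0.22, adjusted p = 0.802).

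Non-classical monocyte genes had 1 of 10 lower, the ribonuclease Ear2, with 592 and 443 CPM in MHC II-high cells against 1936 and 1849 CPM in MHC II-low cells (-1.83 ± 0.21, adjusted p = 2.04e-07). Of 13 genes shared by monocytes and macrophages, the integrin chain Itgam (-1.05 ± 0.29, adjusted p = 0.0475) and Lyz2 were lower and none higher. The growth factor receptor Csf1r was not called, at 103 and 148 CPM in MHC II-high cells against 208 and 200 CPM in MHC II-low cells (log2 fold change -0.55, adjusted p = 0.637). It was called lower, at -2.96 (adjusted p = 3.39e-04), without the cells rich in another list described below. The pan-leukocyte phosphatase Ptprc had 420 and 404 CPM in MHC II-high cells, against 396 and 435 CPM in MHC II-low cells, a log2 fold change of 0.05 ± 0.23. The largest falls also held Akr1c18 (0 UMIs in MHC II-high cells, at least 15.3-fold lower), Hmox1, the haem oxygenase (-3.54 ± 0.54), Samsn1, Cd2, Rras2, Mmp19, Hopx and Cfap43. The last 3 had 1 or 2 UMIs in MHC II-high cells, with ratios of 26.0 (95% counting interval 4.20 to 1072), 24.8 (3.99 to 1025) and 10.6 (2.54 to 94.4). Mono 1 held 279 and 295 CPM of Hmox1, above the 104 and 246 CPM of MHC II-low cells.

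**Figure D3:**
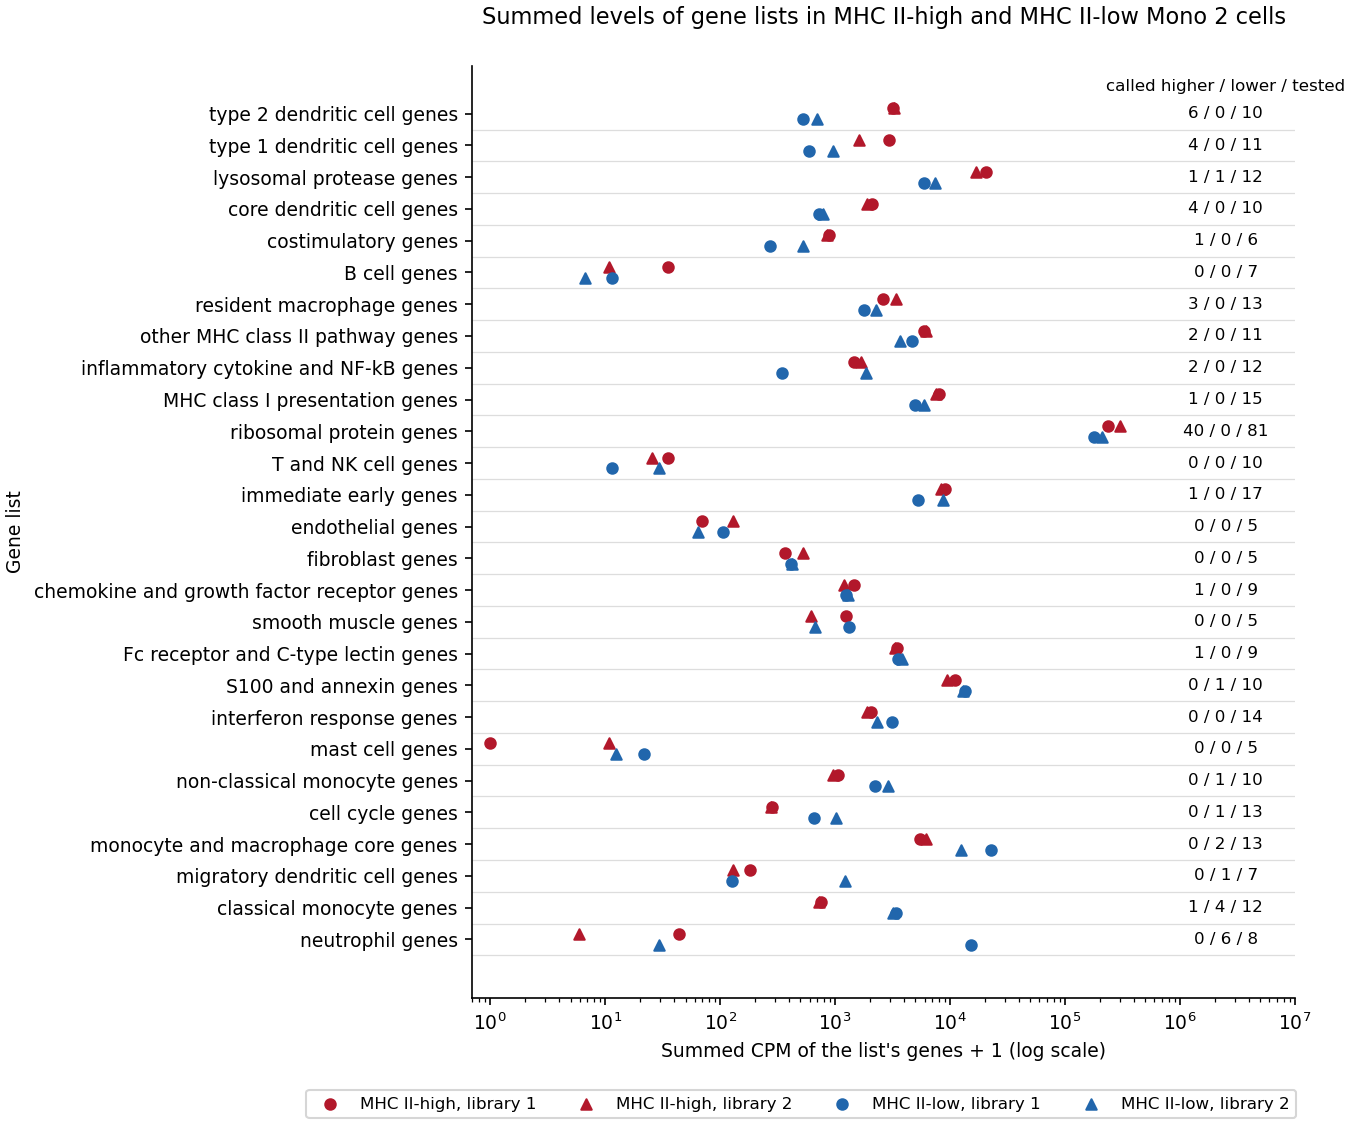
Summed CPM + 1 of each gene list with at least 5 tested genes (x axis, log scale), with red points for MHC II-high and blue for MHC II-low cells in library 1 (circles) and library 2 (triangles), and at the right the genes called higher, called lower and tested. Type 2 dendritic cell genes stand at the top with 6 of 10 higher, and the neutrophil list at the bottom, where 1 cell of library 1 gives the MHC II-low point.

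Single cells shaped some of the genes that were lower. Of 8 neutrophil genes, 6 were lower in MHC II-high cells (Camp, S100a8, S100a9, Ngp, Retnlg and Lcn2), with a summed level of 42.9 and 4.92 CPM in MHC II-high cells against 15124 and 28.6 CPM in MHC II-low cells. One MHC II-low cell of library 1 with 2939 UMIs gave nearly all of it, with 1448 UMIs (49.3%) from neutrophil genes and a score of 0. S100a8 had 1 UMI in MHC II-high cells and 578 in MHC II-low cells of library 1, of which that cell gave 99.8%. The chemokine Ccl5 had 146 UMIs in MHC II-low cells of library 2, all from 1 cell that also held the migration receptor Ccr7, and 1 UMI in MHC II-high cells. Another MHC II-low cell of library 1 drew 13.3% of its UMIs from haemoglobin genes, and the 4 red cell genes summed to 3397 and 1541 CPM in MHC II-high cells against 10960 and 1626 CPM in MHC II-low cells, with 0 called. Leaving out the 13 Mono 2 cells in which another list took more than 1% of UMIs (5% for red cell genes) gave 288 called of 9677 genes (2.98%), 174 higher (1.8%) and 114 lower (1.18%), of which 188 were among the 223. Camp, S100a8, S100a9, Ngp, Retnlg, Lcn2 and Ccl5 were no longer called then. Calls were also lost for Cd72 (adjusted p = 0.423), Acp5 (0.498), Chil3 (0.265), Itgam (0.101), Ifngr1 (0.0722), B2m (0.0538), Sepp1 (0.118), Hmgb2 (0.884) and C1qa.

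Resident macrophage genes had 3 of 13 higher and 0 lower, with a median of 0.82. C1qa, a chain of complement C1q, had 652 and 1024 CPM in MHC II-high cells, against 396 and 446 CPM in MHC II-low cells (1.10 ± 0.26, adjusted p = 0.0157), all far below the 8172 and 7426 CPM of Mono 1. Few cells carried it, since 5 of 44 MHC II-high and 4 of 44 MHC II-low cells had at least 2 UMIs of C1qa. Its log2 fold change was 0.26 without the 13 cells and 0.05 when cells were ranked without Cd74, and it was not called in either. The scavenger receptor Cd163 (2.34 ± 0.52) and the selenium carrier Sepp1 (1.02 ± 0.27) were the other two. Markers of smooth muscle, fibroblasts, endothelium, T and NK cells and mast cells had 0 called genes, and smooth muscle genes summed to 1244 and 616 CPM in MHC II-high cells against 1311 and 670 CPM in MHC II-low cells.

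The lists of cell state held 0, 1 or 2 called genes each, beside 2.28% called of all 9792 genes tested. Of 17 immediate early genes, which dissociation can induce, Ier2 alone was higher (1.52 ± 0.33, adjusted p = 0.00678), and Fos was not called, with 1132 and 1251 CPM in MHC II-high cells against 822 and 881 CPM in MHC II-low cells. Of 12 inflammatory genes, Ier3 and Nfkbia, the inhibitor of NF-kB (1.24 ± 0.31, adjusted p = 0.0203), were higher. Of 13 cell cycle genes, Hmgb2 alone was lower, with 61.2% of its UMIs in MHC II-low cells from 1 cell, and none of 14 interferon response genes was called. Among 9 Fc receptor and lectin genes the inhibitory receptor Fcgr2b was higher (1.41 ± 0.31), among 9 receptor genes Ifngr1, a chain of the interferon-gamma receptor (1.31 ± 0.30), and among 10 S100 and annexin genes S100a10 was lower (-0.72 ± 0.19). After thinning, Ifngr1 stood at 0.23 and S100a10 at -0.10, and neither was called there or without cells with Clec9a or Xcr1.

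Some calls depended on the score or the tool. With cells ranked by Cd74 alone, Flt3, Dpp4, Ckb, B2m, Sepp1, S100a10, Hmgb2, Ms4a4c, Hopx and Ifi205 were no longer called. With cells ranked without Cd74, Flt3, B2m, C1qa, Cd72, Acp5, Itgam, Sepp1, Mmp19 and Akr1c18 were not called. DESeq2 did not call Ear2, Fcgr2b, Itgam and Lyz2, nor Camp, S100a9, Ngp, Retnlg, Lcn2 and Ccl5 of the single cells above.

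Ribosomal protein genes were higher in MHC II-high cells in 40 of 81 cases and lower in 0, with a median of 0.52. This list was chosen after its values had been seen. Together they took 235232 and 298760 CPM in MHC II-high cells, against 178142 and 211372 CPM in MHC II-low cells. Rps27 had 6545 and 7682 CPM in MHC II-high cells, against 3695 and 4699 CPM in MHC II-low cells (0.84 ± 0.13, adjusted p = 6.90e-05). The part of depth per cell in this difference was not tested beyond thinning, after which Rps27 stood at 0.56 and was not called.

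Counted cell by cell, at least 2 UMIs of the dendritic cell markers Cd209a, Clec9a, Xcr1, Flt3 and Zbtb46 together were found in 36 of 44 MHC II-high cells (81.8%, exact 95% Clopper-Pearson interval 67.3 to 91.8), 6 of 21 middle cells (28.6%, 11.3 to 52.2) and 1 of 44 MHC II-low cells (2.27%, 0.0575 to 12.0). In VSMC, which should lack them, the share was 0.185% (4 of 2159 cells, median 6025 UMIs). After thinning to 1300 UMIs, a UMI of these markers was left in 65.9% of MHC II-high, 19.0% of middle, 6.82% of MHC II-low and 0.787% of VSMC cells. The markers of the dendritic cell subsets fell on different cells. At least 2 UMIs of Cd209a were found in 27 MHC II-high cells and of Clec9a or Xcr1 in 8, and 0 cells had both. In MHC II-low cells 0 of 44 had that many UMIs of either, which allows a share of such cells of up to 6.82% by a floor of 3 counts (exact interval 0 to 8.04%), and 3 of them had 1 UMI of Cd209a. Clec9a and Xcr1 had 1 UMI each in all MHC II-low cells. The MHC II-low cell with 6 UMIs of the 5 markers held 1 of Clec9a or Xcr1 and 62 of the type 1 list, so type 1 genes were not absent from that group. These intervals cover counting error only.

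Retnla ran the other way, with at least 2 UMIs in 6 of 44 MHC II-high cells (13.6%, 5.17 to 27.4), 14 of 21 middle cells and 36 of 44 MHC II-low cells (81.8%, 67.3 to 91.8), against 2.83% of VSMC. Lyz1 was found in 5 of 44 MHC II-high and 26 of 44 MHC II-low cells, against 0.0463% of VSMC. The MHC II-low cells with scores of 28.1 or less had 0 UMIs of Retnla and 0 or 1 UMI of Lyz1. Retnla and Lyz1 therefore do not mark the lowest MHC class II scores. Plac8 was found in 0 of 44 MHC II-high and 6 of 44 MHC II-low cells. The authors' name of a monocyte population stands beside dendritic cell markers in most MHC II-high cells, and beside little Ly6c2 in either group.

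**Figure D4:**
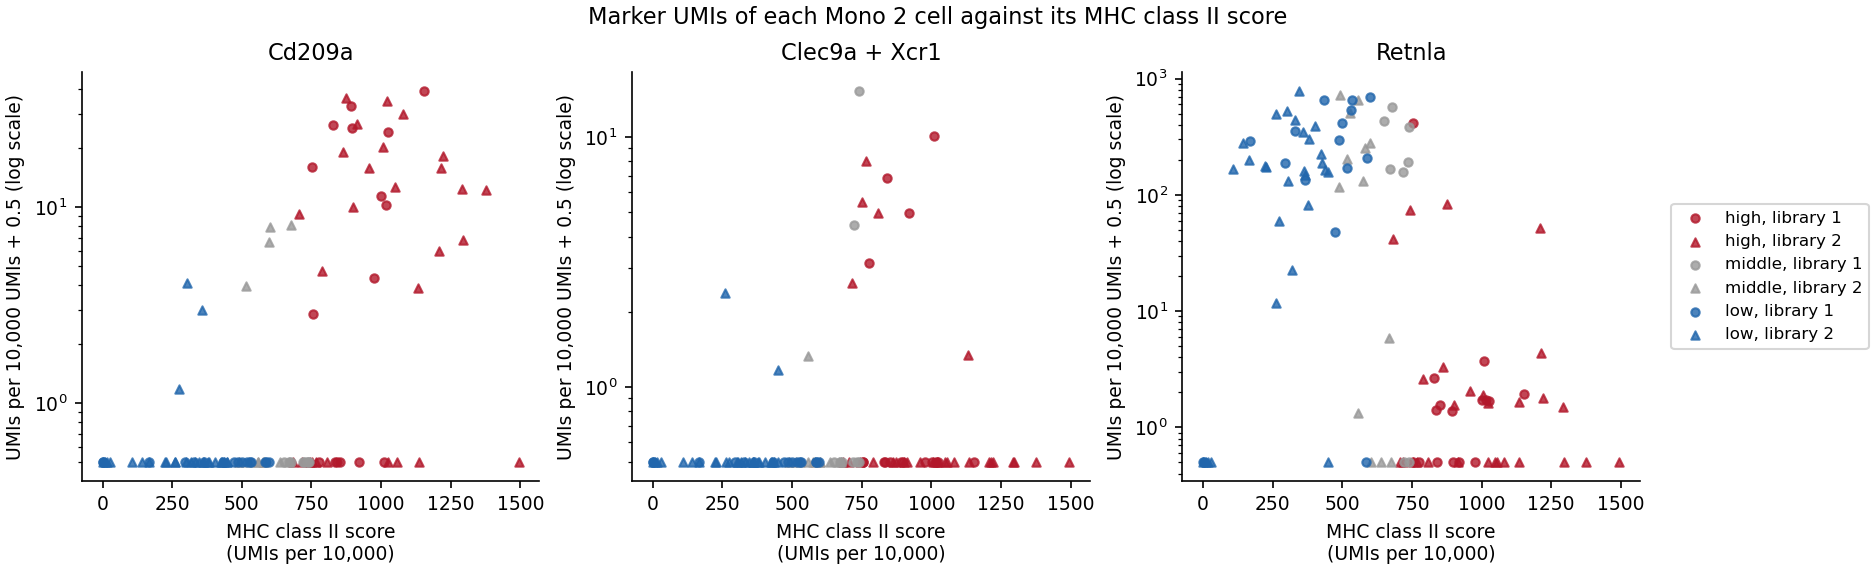
UMIs per 10000 UMIs + 0.5 (y axes, log scale) of Cd209a, of Clec9a plus Xcr1 and of Retnla in each Mono 2 cell against its MHC class II score (x axes), with MHC II-high cells in red, middle cells in grey and MHC II-low cells in blue (circles library 1, triangles library 2). At least 2 UMIs of Cd209a are found in 27 of 44 MHC II-high and 0 of 44 MHC II-low cells, and of Retnla in 6 and 36 of them.

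The comparison was repeated without the 43 Mono 2 cells with at least 2 UMIs of those 5 markers, ranking the rest anew within each library (10 and 16 MHC II-high cells against 10 and 17 MHC II-low cells). This alternative was chosen after the data had been seen. Only 8 of the 44 earlier MHC II-high cells and 15 of the 21 middle cells were left. Most of the 26 new MHC II-high cells were therefore middle or MHC II-low cells before, and the contrast differs from that in all Mono 2 cells. For Retnla the earlier middle cells, at 26365 and 18528 CPM, already resembled the MHC II-low cells. The calls came to 41 of 9809 genes (0.418%), with 29 higher (0.296%) and 12 lower (0.122%), and 24 of them were among the 223, each in the same direction. Retnla then differed by less than its SE, with 29001 and 13701 CPM in MHC II-high cells against 28444 and 21447 CPM in MHC II-low cells (-0.15 ± 0.27). Lyz1 (0.37 ± 0.22), Fn1 (-0.53 ± 0.24), Lpl (-0.36 ± 0.24), Ear2 (-0.12 ± 0.22) and Ccl6 (0.045 ± 0.20) were not called either. Plac8 was called as before, with 0 and 18.0 CPM in MHC II-high cells against 415 and 663 CPM in MHC II-low cells.

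Among the cells left, several genes were higher where MHC class II was high. Cst3 had 8398 and 6098 CPM in MHC II-high cells, against 2014 and 3041 CPM in MHC II-low cells (1.61 ± 0.19). The richest cell gave 32.2% of the Cst3 UMIs in these MHC II-high cells and the richest 5 gave 66.6%. All 26 of these cells had at least 2 UMIs of Cst3. H2-DMa (0.94 ± 0.21, adjusted p = 0.0195) and H2-DMb1 (1.01 ± 0.22, adjusted p = 0.0143) were called here, and H2-DMb2 was not (-0.56 ± 0.40). Ifi30 (0.66 ± 0.42, adjusted p = 0.864) and H2-Oa (1 and 6 UMIs in MHC II-high cells, 0 in MHC II-low cells, adjusted p = 0.694) lost their calls. Irf8 (4.46 ± 0.72) and Cadm1 (4.93 ± 1.02) were again higher, with 2 and 1 UMIs in MHC II-low cells. Some of the cells left still held type 1 dendritic cell genes. At least 10 UMIs of that list were found in 8 of 26 MHC II-high and 1 of 27 MHC II-low cells. Several of these 8 cells were rich in another list, with 11 to 17 UMIs of the type 1 list beside 114 to 197 of the resident macrophage list. Another had 32 beside 346 UMIs of the fibroblast list. These 8 cells are therefore not a count of type 1 dendritic cells left. A further MHC II-high cell had 94 UMIs of the type 1 list, and 1 cell gave 55.3% of the Irf8 UMIs in MHC II-high cells. C1qa had 1006 and 2315 CPM in MHC II-high cells, against 15.4 and 158 CPM in MHC II-low cells (4.19 ± 0.44), and C1qb and C1qc were higher with it (3.51 ± 0.46 for C1qc). Also higher were Apoe, apolipoprotein E (1.71 ± 0.27), Mmp12, macrophage elastase (7.27 ± 0.80), and Lgmn, the protease legumain (2.33 ± 0.53). The 5 cells richest in a gene gave 84.7% of the UMIs of C1qa, 91.1% of Apoe, 90.0% of Mmp12 and 86.0% of Lgmn in these MHC II-high cells. More than 100 UMIs of the resident macrophage list were found in 6 of 26 MHC II-high and 0 of 27 MHC II-low cells. The cells named above with 114 to 197 of these UMIs are among them. The fibroblast genes Dcn and Lum were called higher as well (2.94 ± 0.63 and 2.92 ± 0.69), and 1 cell gave 89.5% of the Dcn and 90.2% of the Lum UMIs in MHC II-high cells.

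**Figure D5:**
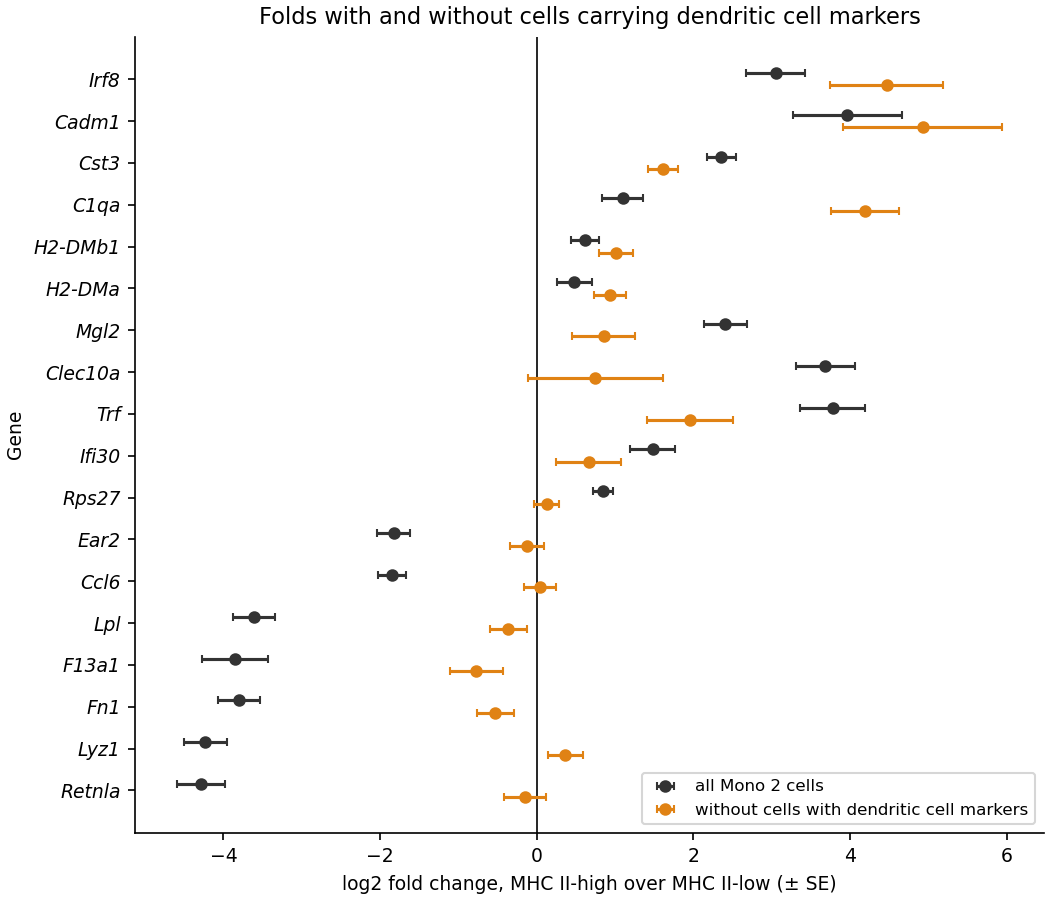
Log2 fold change of MHC II-high over MHC II-low cells with its SE (x axis) for 18 genes, in all Mono 2 cells (black) and without the 43 cells with dendritic cell markers (orange). Retnla, Lyz1, Fn1 and Lpl lie near 0 without those cells, while Cst3 (1.61), Irf8 (4.46) and C1qa (4.19) stay above 0. The orange groups were ranked anew, so most of their MHC II-high cells were not MHC II-high in the black comparison.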

How the data were processed

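Single cells of 2 dissociated aortas were measured with 10x Genomics v2 libraries. The deposited table holds counts of UMIs for 16971 genes in 5451 cells, for which the submitters' processing notes name Cell Ranger 2.1 as the authors' tool. The genome build is not given in the sources used here. The authors' population names were taken as deposited, and libraries were told apart by the number at the end of each barcode. Which aorta gave which library is not stated, and libraries are numbered by that suffix. Western diet and low-depth libraries were not analysed here.

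Cells were scored and split as the report describes, and UMIs were summed per library and population with at least 10 cells, so the 8 middle cells of library 1 stayed out of the fit. The 4 score genes were left out. edgeR 4.0.16 (R 4.3.3) was used with filterByExpr, TMM, and population and library as terms (23 sums, residual degrees of freedom 10, common dispersion 0.0133), two-sided, with Benjamini-Hochberg adjustment. Both groups come from the same aortas, so the library is the block. With 2 libraries, p-values rest on a spread estimated across all 23 sums, most of them of other populations. Some of these hold many more cells (1103 and 1056 for VSMC) than the Mono 2 groups (16 and 28 each). The p-values therefore do not measure the spread between Mono 2 sums by themselves. With the 4 Mono 2 sums alone in the fit, 8 of 2052 genes were called. Library folds use a prior count of 2. Folds against a group at 0 use a floor of 3 UMIs over the group. Scrublet (scanpy 1.11.5) predicted doublets. The script was tested on simulated data.

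Members, gene lists and tests were chosen with earlier results of these data known. The text names the 15 largest folds each way among called genes that had 20 UMIs or more and moved alike in both libraries, up to 4 members of each list by absolute fold, the class II pathway genes, and fixed markers. Named after their values were seen were Clec10a, Mgl2, Irf8, Napsa, Ckb, Sepp1, Nfkbia, B2m, Ppt1, Ifi205, Hmgb2, Ngp, Rps27 and Ccl6, and, without the cells with dendritic cell markers, C1qb, C1qc, Apoe, Mmp12, Lum and the genes in the figure of folds. Other settings tried were DESeq2 1.42.0, RLE scaling, no filter, no library term, only the Mono 2 sums, other splits and scores, thinning, and cells left out.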

Additional observations from a re-analysis of the deposited data

How the results depend on the processing

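Counts of called genes stayed within 1.5 times of 223 (139 higher and 84 lower) with RLE size factors, DESeq2, no filter on low counts, a split at the library median or at the 75th and 25th percentiles, a score from Cd74 alone or without Cd74, predicted doublets left out and cells rich in another list left out. Without the library block, 84 genes were called (45 higher, 39 lower), all among the 223. With the 4 Mono 2 sums alone in the fit, 8 of 2052 were called (3 higher: Cd209a, Trf and Mgl2; 5 lower: Retnla, Lpl, Fn1, Lyz1 and Ccl6). Thinning to 1300 UMIs left 55 (22 higher, 33 lower). Without cells with Clec9a or Xcr1, 86 were higher. Without cells with dendritic cell markers, 41 were called (29 higher, 12 lower). The cause of these changes was not tested, except that thinning and smaller groups hold fewer UMIs.

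Signs turned without cells with dendritic cell markers for Cd209a (-1.07), Ms4a4c (-6.98), Cd209d (-1.09), Napsa (-0.46), Nfkbia (-0.11), Lyz1 (0.37), Lyz2 (0.36), H2-DMb2 (-0.56), Ccr2 (0.15), Csf1r (0.54) and Ccl6 (0.045), with Cd74 alone for Ifi205 (-0.67), and without cells rich in another list for S100a9 (0.085), Ngp (0.13), Lcn2 (0.057) and Ccl5 (5.44). None of these turned values was called. Cd209a was among the markers that chose the cells left out, so its loss there was set by the rule. It had 1 and 0 UMIs in the MHC II-high cells left, against 0 and 2 in the MHC II-low cells left. Cd209d had 0 and 1 UMIs against 1 and 1, and Ms4a4c had 0 and 0 against 1 and 1, too few to read a direction.

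Each library alone gives values without a test. The setting that leaves out cells with at least 2 UMIs of T and NK, B, smooth muscle, fibroblast or endothelial genes would leave out 106 of 109 cells and was not run. Genes with few UMIs, such as Ciita and Ly6c2, limit what can be detected.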

Other observations

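The called genes named here were picked one by one after their values were seen, so they stand for no pathway or group. Tmem176a and Tmem176b, paired cation channels of the endolysosome that dendritic cells are known to use in antigen processing, were higher in MHC II-high cells by 2.37 ± 0.32 and 1.23 ± 0.27 on the log2 scale, in the same test and with the same SE as in the report. Tmem176a had 592 and 586 CPM in MHC II-high cells, against 72.9 and 149 CPM in MHC II-low cells. Plbd1, a lysosomal phospholipase (1.60 ± 0.23), Fcgrt, the neonatal Fc receptor (2.64 ± 0.40), the tetraspanin Cd9 (1.74 ± 0.26) and the integrin chain Itgb7 (2.63 ± 0.46) were higher too. The metallothionein Mt2 had 755 and 522 CPM in MHC II-high cells, against 10.4 and 155 CPM in MHC II-low cells (3.01 ± 0.47), and 1 cell gave 23.7% of its UMIs in MHC II-high cells.

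Other genes, picked in the same way, were lower. Capg, which caps actin filaments, had 566 and 305 CPM in MHC II-high cells, against 1311 and 870 CPM in MHC II-low cells (-1.28 ± 0.27). Cotl1 (-0.86 ± 0.19), Flna, filamin A (-0.99 ± 0.25), and Lmna, which encodes the A-type lamins (-1.65 ± 0.32), were lower as well. The Fc receptor-like gene Fcrls had 292 and 143 CPM in MHC II-high cells, against 1166 and 756 CPM in MHC II-low cells (-2.12 ± 0.24). Gda, guanine deaminase, had 17.2 and 78.8 CPM in MHC II-high cells, against 375 and 538 CPM in MHC II-low cells (-3.00 ± 0.35). The chemokine Ccl9 (-0.97 ± 0.22) and Pltp, the phospholipid transfer protein (-1.13 ± 0.26), were also lower.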
